A study of Mus musculus with 12 samples.

Results

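Counts of 5 mouse genes were followed through 12 RNA-seq libraries of female germline stem cells (FGSCs). The genes were *Prelid1*, *Prelid2*, *Prelid3a* and *Prelid3b*, which encode the PRELI domain proteins of the mitochondrion, and *Triap1*, which encodes their partner protein. They were found by matching the RefSeq accessions of the deposited table to gene symbols, and they are 5 of the 24813 genes named in it. The family was chosen by the log2 fold change of *Prelid3a* between the *Stella*-knockout line and its control, and its relatives and partner were added by name. The values of that comparison are therefore a description, without a test for these genes.

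The 4 groups, of 3 libraries each, were FGSCs with a CRISPR/Cas9 knockout of *Stella* (dppa3-ko, here KO), the control of that line (DPPA3-ko-control, KO-con), FGSCs that overexpress *Stella* from a lentivirus (DPAA3-over, Over) and FGSCs with the empty lentiviral vector (dppa3-over-control, Over-con). *Stella* is the gene *Dppa3*. All cells were of strain C57BL/6, had been passaged more than 20 times by the sample labels and grew on STO feeder cells, and no treatment or age is given. For the knockout and overexpressing lines the paper gives a smaller number of generations, and where either count starts is not stated. The knockout line was 1 clone grown from a single cell, whereas the overexpressing line was selected with puromycin, so the knockout and the clone cannot be told apart in these data. The construct carried by KO-con is not given in the sources used here. Nothing says whether the 3 libraries of a group came from separate cultures, so the spread between them may be technical.

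PRELI domain proteins are lipid carriers of the intermembrane space of mitochondria. PRELID1 and PRELID3B each work as a pair with TRIAP1, a small protein that folds in that space after import, and the pair takes up a phospholipid at the outer membrane and delivers it to the inner membrane. PRELID1 carries phosphatidic acid, the starting material of cardiolipin, and PRELID3B carries phosphatidylserine, which is converted to phosphatidylethanolamine by the inner membrane enzyme PISD. PRELID3A is the closest relative of PRELID3B, and TRIAP1 is also known as an inhibitor of the apoptosome that is induced by p53.

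Each of the 5 genes has 1 transcript in the table. On the mm9 genome (NCBIM37), *Prelid1* (NM_025596) spans 55423416 to 55426632 of chromosome 13 (plus strand), *Prelid3b* (NM_025531) 174290568 to 174298582 of chromosome 2 (minus strand) and *Triap1* (NM_026933) 115791234 to 115793578 of chromosome 5 (plus strand). The last 104 bases of *Prelid1* overlap *Mxd3* on the opposite strand. A stretch of 289 bases of the *Prelid1* transcript also occurs on chromosome 3 from 37497993 to 37498281, at 97.6% identity. *Prelid3b* and *Triap1* had 0 such copies of at least 50 bases at 95% identity or more.

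The promoters of *Prelid1*, *Prelid3b* and *Triap1*, the members whose levels differed least between the groups, are shown from 250 bases before to 50 bases after the transcript start as listed by RefSeq for GRCm38.p6. Capitals mark exact matches, on either strand, to CCGGAAGT, a form of the motif of ETS factors, or to the core of the NRF1 motif. That core is GCGCA and GCGC with any 1 base between them, and NRF1 is known as a regulator of mitochondrial genes. The first lies at chr13:55321805-55322104 (plus strand), the second at chr2:174472892-174473191 (minus strand) and the third at chr5:115340981-115341280 (plus strand).
Prelid1: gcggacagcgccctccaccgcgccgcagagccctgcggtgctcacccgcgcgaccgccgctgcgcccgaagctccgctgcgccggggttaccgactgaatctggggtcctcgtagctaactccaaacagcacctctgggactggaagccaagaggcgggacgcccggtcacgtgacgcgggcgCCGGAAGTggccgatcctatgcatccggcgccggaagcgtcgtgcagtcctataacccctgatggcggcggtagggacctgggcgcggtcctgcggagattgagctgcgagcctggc
Prelid3b: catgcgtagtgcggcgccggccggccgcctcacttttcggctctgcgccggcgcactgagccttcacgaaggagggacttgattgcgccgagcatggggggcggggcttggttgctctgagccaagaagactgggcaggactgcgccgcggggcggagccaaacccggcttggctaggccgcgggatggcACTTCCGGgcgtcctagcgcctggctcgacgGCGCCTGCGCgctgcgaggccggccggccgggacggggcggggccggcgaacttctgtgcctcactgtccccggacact
Triap1: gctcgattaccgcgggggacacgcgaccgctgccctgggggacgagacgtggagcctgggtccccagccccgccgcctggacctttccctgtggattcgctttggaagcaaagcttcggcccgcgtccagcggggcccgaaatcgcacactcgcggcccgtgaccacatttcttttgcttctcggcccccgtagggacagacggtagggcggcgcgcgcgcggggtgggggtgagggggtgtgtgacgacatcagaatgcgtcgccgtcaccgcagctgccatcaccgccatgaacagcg
The letters CCGGAAGT occurred 1 time in the *Prelid1* and 1 time in the *Prelid3b* window, and in 3.89% of 32851 promoter windows of this length. Other forms of the ETS motif were not sought. The NRF1 core occurred 1 time in the *Prelid3b* window and in 4.60% of the windows. *Triap1* held 0 matches to either, which says only that these letters are not in this window. The marked matches do not overlap each other.

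The libraries held between 5611846 and 12866545 counts, the shallowest being Over-con replicate 2. *Dppa3* had 0 counts in each KO, KO-con and Over-con library and 347, 371 and 285 counts in Over, so the counts show the overexpression but cannot show the knockout. Among the defining germ cell markers *Ddx4* had 0 counts in all 12 libraries, and *Dazl* and *Pou5f1* 1 count each in all. These 3 genes have 2 transcripts each in the table, and how reads shared between transcripts were counted is not given in the sources used here. In the same list *Ifitm3* had 76.3 to 163 CPM. *Sycp3* and *Prdm1* had counts in all 12 libraries, at up to 2.75 and 1.98 CPM. Of the other markers, the fibroblast list summed to between 828 and 1533 CPM and the mast cell list to between 367 and 1228 CPM, led by *Cpa3*. In such bulk libraries, fewer cells of a type and less RNA per cell cannot be told apart.

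*Prelid3a* (NM_144867) was the member whose level differed most between the groups. It spans 67624503 to 67640235 of chromosome 18 (mm9, plus strand), and 97 bases, 4.48% of its exonic length, match repeated sequence elsewhere in the genome. In KO its libraries held 1773, 2518 and 2205 counts, or 203, 220.0 and 200.2 CPM (counts scaled to library size, normalized by edgeR's TMM method over all 12 libraries). In KO-con they held 250, 268 and 222 counts, or 26.1, 23.8 and 26.8 CPM. In Over there were 42, 66 and 40 counts (3.89, 5.12 and 4.30 CPM), and in Over-con 28, 18 and 52 counts (2.86, 3.16 and 5.01 CPM). The order was therefore KO, KO-con and then the Over and Over-con libraries, which overlapped each other. None of the KO libraries overlapped a KO-con library, and none of the KO-con libraries overlapped a library of the other line and its control. All libraries lay above the floor of 3 counts, which corresponds to between 0.233 and 0.527 CPM, covering counting error only.

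The mean level of *Prelid3a* was 208 ± 10.8 CPM for KO (SD, n = 3), 25.5 ± 1.58 for KO-con, 4.43 ± 0.628 for Over and 3.68 ± 1.16 for Over-con. KO stood 8.13-fold above KO-con, and KO-con itself stood 6.95-fold above Over-con. From Over-con to KO the ratio was 56.5. As log2 fold changes the first difference was 3.03 (SE, the standard error, 0.08, 95% interval 2.85 to 3.21) and the second 2.76 (SE 0.18, 95% interval 2.39 to 3.13). In KO against KO-con, 6 of 9457 transcripts had a larger log2 fold change, and in KO-con against Over-con 4 of 9321. Both comparisons use the KO-con libraries, the first chose the gene, and neither is tested here. The KO-con libraries thus held the gene at a level between the knockout clone and the cells of the overexpression experiment.

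**Figure D1:**
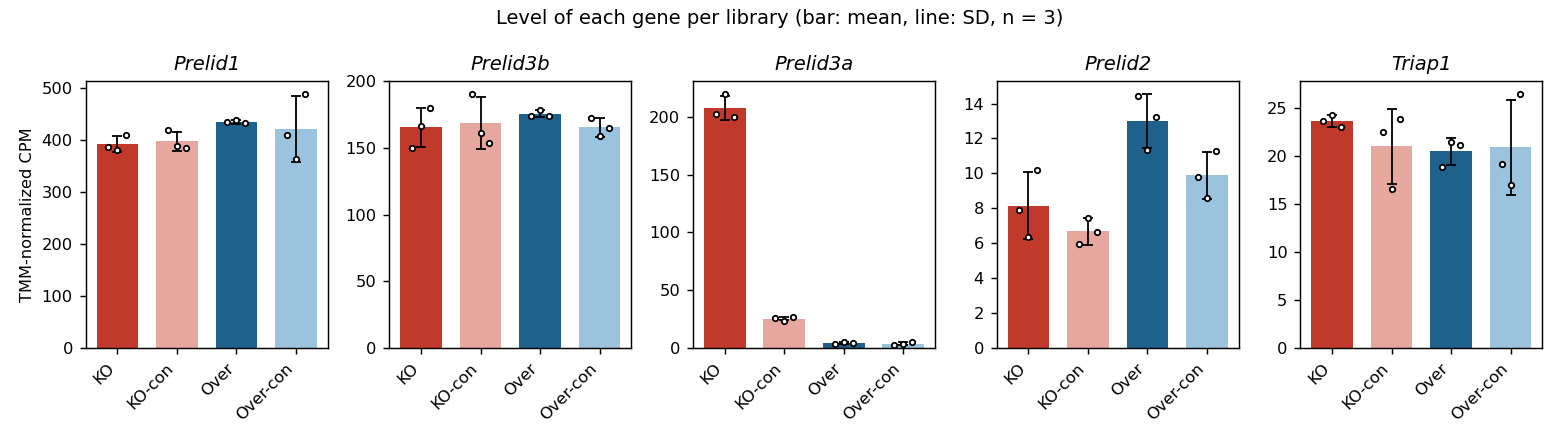
Each panel plots 1 gene, with the TMM-normalized CPM on the vertical axis from 0 and the 4 groups on the horizontal axis. Bars are means, lines SD (n = 3) and circles single libraries. *Prelid3a* falls from 208 CPM in KO to 25.5 in KO-con and 3.68 in Over-con, while *Prelid1*, *Prelid3b* and *Triap1* stay near the same level in all 4 groups.

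Summed levels of cell type markers moved between the same groups. The mast cell list, 9 genes, summed to between 1156 and 1228 CPM in KO and between 367 and 434 in KO-con. It summed to between 646 and 671 CPM in Over and between 753 and 860 in Over-con, both above KO-con, whereas *Prelid3a* was lower in both than in KO-con. Nearly all of each sum was *Cpa3* alone, at 1146 to 1215 CPM in KO and 360 to 429 in KO-con. In Over it had 636 to 665 CPM and in Over-con 744 to 858. *Hdc* went the other way in that experiment, at 2.26 to 3.70 CPM in Over and 1.05 to 2.02 in Over-con. *Fcer1a* and *Ms4a2*, which encode receptor chains that define mast cells, had 0 counts in all 4 groups. The fibroblast list, 7 genes with *Pdgfrb* at 0 in every group, lay between 828 and 1225 CPM in KO and between 951 and 1141 in KO-con, ranges that overlap, and between 1209 and 1533 in Over and Over-con, where *Prelid3a* was lowest. The macrophage list, 6 genes with *Adgre1* at 0 in every group, summed to between 39.4 and 47.3 CPM in KO and between 27.2 and 35.04 in KO-con. It also lay higher in Over, at 42.3 to 43.8 CPM, than in Over-con, at 29.7 to 33.3, so that its groups did not overlap in either experiment. Most of each sum was *Cd68* alone, at 40.5 to 42.0 CPM in Over and 27.2 to 30.1 in Over-con. The other listed genes had low levels, and *Mrc1* went the other way, at 0.078 to 0.215 CPM in Over and 0.578 to 1.05 in Over-con. The germ cell list without *Dppa3*, 7 genes led by *Ifitm3*, lay between 79.3 and 121 CPM in KO, 116 and 139 in KO-con, 119 and 135 in Over, and 152 and 165 in Over-con, and only the Over-con range was apart from the other 3. The part of these cell markers in the levels of *Prelid3a* was not tested.

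*Prelid1*, the carrier of phosphatidic acid, was the most abundant member by count. It had 387, 381 and 410.2 CPM in KO and 419, 389 and 385 in KO-con. In Over it had 434, 439 and 432 CPM, and in Over-con 409, 364 and 489. The groups overlapped within both experiments, with means of 393 ± 15.3, 398 ± 18.3, 435 ± 3.82 and 420.5 ± 63.5 CPM in the same order (SD, n = 3). The log2 fold change of KO against KO-con was -0.01 (SE 0.07), and the 95% interval ran from -0.16 to 0.13.

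*Prelid3b*, the carrier of phosphatidylserine and the closest relative of *Prelid3a*, was as level as *Prelid1*. KO libraries had 150.3, 166 and 179.7 CPM and KO-con libraries 190.7, 161 and 154. The Over libraries had 174, 178.9 and 174 CPM and the Over-con libraries 173, 159 and 165. Between KO and KO-con the log2 fold change was -0.02 (SE 0.09, 95% interval -0.20 to 0.16). From the means, KO stood at 0.981 of KO-con and KO-con at 1.02 of Over-con.

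*Triap1*, the shared partner of the carriers, had 23.7, 24.3 and 23.1 CPM in KO and 22.5, 16.6 and 23.9 in KO-con. Its level was 18.9, 21.4 and 21.2 CPM in Over and 19.2, 17.03 and 26.5 in Over-con. The groups overlapped within both experiments, while each KO library lay above each Over library, with counts of 97 to 278 per library behind the values. KO and Over were not compared over all transcripts, so the share of transcripts that separate these groups is not known and nothing is read from this. In KO against KO-con its log2 fold change was 0.19 (SE 0.13, 95% interval -0.09 to 0.47).

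*Prelid2* (NM_029942), at 42035350 to 42110848 of chromosome 18 (minus strand), was the least abundant member in KO and KO-con by count, with 49 to 156 counts per library over the 4 groups. It had 7.90, 6.38 and 10.2 CPM in KO and 5.94, 7.45 and 6.64 in KO-con. The Over libraries had 14.4, 11.3 and 13.2 CPM and the Over-con libraries 9.80, 8.60 and 11.3. The order of its groups was unlike that of *Prelid3a*, with Over highest and KO-con lowest. KO overlapped KO-con and also Over-con, whereas KO-con and Over-con did not overlap, and their log2 fold change was -0.57 (SE 0.18). For KO against KO-con it was 0.29 (SE 0.20, 95% interval -0.14 to 0.71).

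Counting the members in the comparison that chose them, 1 of 5 (*Prelid3a*) had an adjusted p under 0.05 in KO against KO-con, where 11.8% of all transcripts had (5.83% higher and 5.96% lower), and nothing is read from this. With an absolute log2 fold change over 1 as well, it was 1.7% of all transcripts. The groups did not overlap for that 1 member, against 30.5% of all transcripts. In KO-con against Over-con 2 of 5 passed, *Prelid3a* higher and *Prelid2* lower in KO-con, where 16.3% of all transcripts passed (8.08% higher and 8.19% lower), 2.16% with an absolute log2 fold change over 1. These same 2 members had groups that did not overlap, against 32.3% of all transcripts. With DESeq2, or without KO-con replicate 1 or 3 or Over-con replicate 1 or 3, *Prelid3a* alone was left. This comparison shares the KO-con libraries with the one that chose the family, so its counts are a description and nothing is read from them either.

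Levels can be compared between genes per length of transcript. Per kb of exonic length in the GENCODE M1 models, *Prelid1* stood highest in every group, at 361 ± 14.0 CPM per kb for KO (SD, n = 3), 365 ± 16.8 for KO-con, 400.0 ± 3.51 for Over and 386 ± 58.3 for Over-con. *Prelid3b* followed, at 107 ± 9.50, 109 ± 12.6, 113 ± 1.73 and 107 ± 4.51 CPM per kb. *Prelid3a* stood at 95.8 ± 4.96 CPM per kb in KO, close to *Prelid3b*, and at 11.8 ± 0.728 for KO-con, 2.05 ± 0.290 for Over and 1.70 ± 0.537 for Over-con. It was thus the third most abundant member in KO and the last in Over and Over-con. *Triap1* lay between 18.8 and 21.8 CPM per kb and *Prelid2* between 9.22 and 17.9 on average in the 4 groups.

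The share of *Prelid3a* in the summed per-length level of *Prelid3a* and *Prelid3b* was 47.4% ± 2.63 for KO (SD, n = 3), 9.86% ± 1.12 for KO-con, 1.77% ± 0.221 for Over and 1.57% ± 0.498 for Over-con. All 4 PRELI genes together summed to 575 ± 21.9 CPM per kb for KO, 495 ± 28.7 for KO-con, 533 ± 3.87 for Over and 508 ± 62.1 for Over-con. Set against *Triap1*, this sum was 26.4 ± 1.60 times as high in KO and 26.3 ± 5.08 times in KO-con, ratios that overlap between the libraries. In Over it was 28.4 ± 2.01 and in Over-con 26.9 ± 2.91 times.

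**Figure D2:**
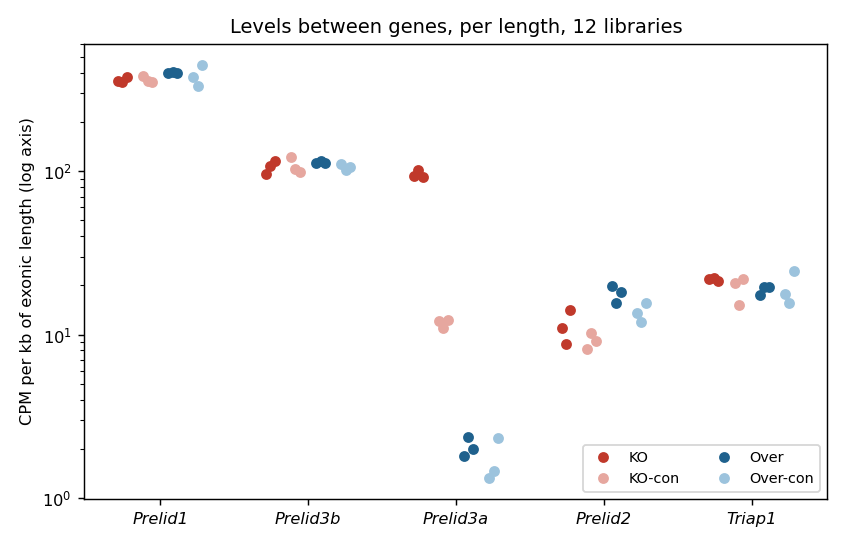
The vertical axis is a log axis of CPM per kb of exonic length, the horizontal axis holds the 5 genes, and each point is 1 of the 12 libraries, in the color of its group. *Prelid3a* spans from 1.70 (mean in Over-con) to 95.8 (mean in KO), where it reaches the level of *Prelid3b*.

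The overexpression of *Stella* was compared with its vector control in libraries that had no part in choosing the genes. None of the 5 members passed edgeR's quasi-likelihood test with Benjamini-Hochberg adjustment over all 9401 transcripts, of which 1.65% had an adjusted p under 0.05 (0.766% higher and 0.883% lower), 0.17% with an absolute log2 fold change over 1. At an unadjusted p under 0.05 there was 1 member, *Prelid2*, and with DESeq2's adjusted p there were 0. The share of all transcripts at an unadjusted p under 0.05 was not computed, so nothing is read from that count. The log2 fold change of *Prelid3a* was 0.24 (SE 0.25, adjusted p = 0.747), with a 95% interval from -0.29 to 0.77. Changes within that interval were not excluded by these libraries, which held 18 to 66 counts of the gene, and without Over-con replicate 3 the value was 0.58. *Prelid2* had a log2 fold change of 0.36 (SE 0.15, 95% interval 0.04 to 0.68, adjusted p = 0.328), and 0.47 without Over-con replicate 3 (edgeR's adjusted p = 0.0921). Its lowest Over library and its highest Over-con library both stood at 11.3 CPM.

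For the 3 more abundant members the intervals were narrower. *Prelid1* had a log2 fold change of 0.04 (95% interval -0.14 to 0.22, adjusted p = 0.893 from edgeR). *Triap1* had -0.06 (95% interval -0.36 to 0.24, adjusted p = 0.899). The value of *Prelid3b* was 0.08 (95% interval -0.06 to 0.21, adjusted p = 0.669), and although its Over libraries all lay above its Over-con libraries, 19.1% of all transcripts were as clearly separated. Without Over-con replicate 3, *Prelid1* was at 0.16 (edgeR's adjusted p = 0.0772) and *Prelid3b* at 0.07 (adjusted p = 0.516). *Triap1* then changed sign, to 0.16 (adjusted p = 0.506). No member passed, but calls over all transcripts went from 155 to 719.

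**Figure D3:**
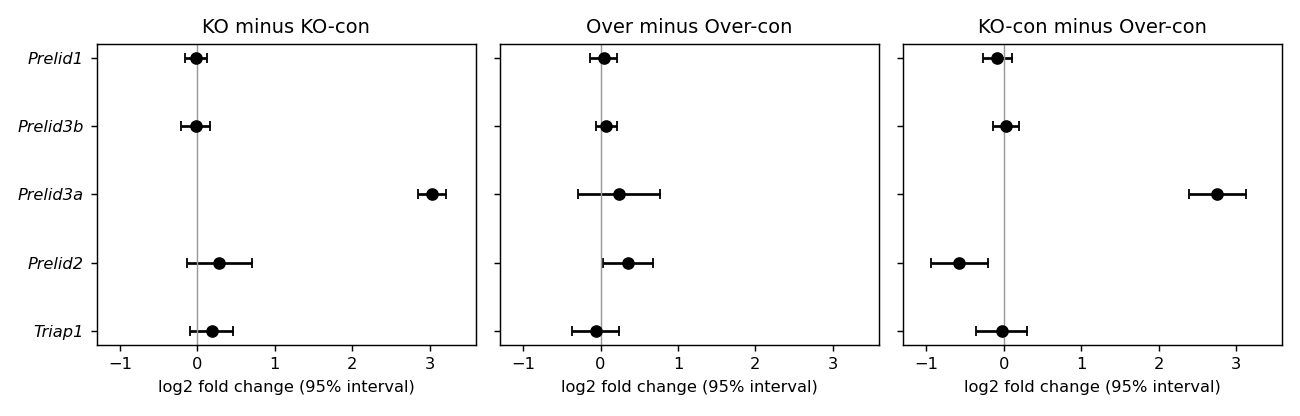
The 3 panels give the log2 fold change on the horizontal axis, with lines for the 95% interval, for the 5 genes in KO minus KO-con, Over minus Over-con and KO-con minus Over-con (n = 3 libraries a group). *Prelid3a* is at 3.03 and 2.76 in the outer panels, which share the KO-con libraries, and at 0.24 in the middle one.

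Genes around the members on the chromosome were examined next, as those with a start within 500 kb of the member's start. Near *Prelid3a*, 10 genes could be tested in KO against KO-con. *Afg3l2*, which encodes a subunit of the inner membrane m-AAA protease, starts at -15683 bases from the start of *Prelid3a*. It had 270, 257 and 250 CPM in KO and 272, 250 and 273 in KO-con, which gave a log2 fold change of -0.03 (SE 0.07, edgeR's adjusted p = 0.845). *Spire1*, an actin nucleator and the next gene on the other side, had a log2 fold change of 0.01 (SE 0.24, edgeR's adjusted p = 0.980) at a mean of 5.07 ± 1.52 CPM in KO against 5.06 ± 0.761. Of the 11 transcripts of these 10 genes 2 passed, 18.2%, against 11.8% of all transcripts. These were *Impa2*, an inositol monophosphatase, at 0.45 (adjusted p = 0.0240), and *Tubb6*, a beta tubulin, at -0.40 (adjusted p = 0.0161). No transcript near a member had an absolute log2 fold change over 1 and an adjusted p under 0.05.

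In KO-con against Over-con, *Afg3l2* differed by 0.00 on the log2 scale (SE 0.07) and *Spire1* by -0.33 (SE 0.21), beside the 2.76 of *Prelid3a*. *Impa2* went the other way from *Prelid3a*, at -0.66 (SE 0.11). Over all 5 members, 6 of 54 neighboring transcripts passed in KO against KO-con, or 11.1% against 11.8% of all. The other 4 were *Lman2*, *Pdlim7* and *Tmed9* near *Prelid1* and *Mlec* near *Triap1*, with log2 fold changes between -0.60 and -0.31, and were named after their values were seen. In Over against Over-con 1 of 55 passed, *Tubb6*, at -0.33 (adjusted p = 0.0290), and 0 passed with any 1 library left out other than Over-con replicate 3.

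**Figure D4:**
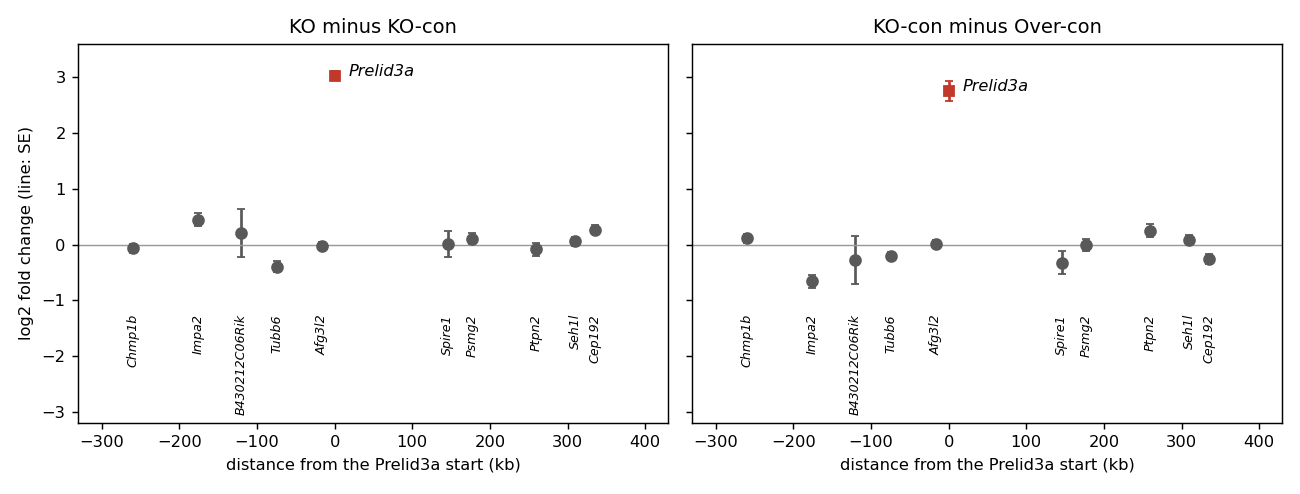
Log2 fold changes (vertical axis, lines SE) of tested genes are plotted against the distance of their start from that of *Prelid3a* in kb (horizontal axis), for KO minus KO-con and KO-con minus Over-con, with 1 transcript shown per gene. *Prelid3a* (square) is at 3.03 and 2.76, and each neighboring gene lies between -0.66 and 0.45.

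The pathway around the carriers was followed with 6 lists, 67 genes in all. They held the enzymes of mitochondrial phospholipid synthesis, the proteases and scaffolds of the inner membrane, the import machinery of the intermembrane space with further twin CX9C proteins, the MICOS complex that shapes the cristae, other lipid transfer proteins, and apoptosome and p53 genes around *Triap1*. In KO against KO-con 47 of the genes could be tested. Of the 20 others 19 have 2 or more transcripts in the table, among them *Opa1*, the fusion protein of the inner membrane, with 3 counts in total over the 12 libraries, and *Crls1*, cardiolipin synthase, with 97. Of 49 transcripts tested 0 rose and 5 fell with edgeR, as with DESeq2, and 14 had an unadjusted p under 0.05. The share of all transcripts at that unadjusted threshold was not computed. Nothing is therefore read from the unadjusted counts of these lists, in KO or in Over. The 5 calls were 10.2% against 11.8% of all transcripts. The median log2 fold change of the 49 was -0.01, beside 0.01 over all transcripts.

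Among the phospholipid synthesis genes 0 of 11 transcripts passed in KO with edgeR or with DESeq2, and 2 had an unadjusted p under 0.05. *Tamm41*, which makes CDP-diacylglycerol from the phosphatidic acid that PRELID1 delivers, had a log2 fold change of 0.25 (adjusted p = 0.343). The 2 transcripts of *Pisd*, which uses the phosphatidylserine delivered by PRELID3B, were at -0.29 (adjusted p = 0.171) and -0.01 (adjusted p = 0.980). Of the proteases and scaffolds 0 of 8 passed with either tool, with 2 at an unadjusted p under 0.05. *Yme1l1*, the protease that degrades PRELID1, had 325, 289 and 275 CPM in KO and 258, 266 and 263 in KO-con. These libraries did not overlap, as for 30.5% of all transcripts, but its log2 fold change of 0.18 (SE 0.07) had an adjusted p of 0.137 in edgeR. The scaffold gene *Stoml2* was at 0.08 (adjusted p = 0.560).

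Among the other lipid transfer proteins 0 of 6 passed with edgeR or DESeq2, 2 of them at an unadjusted p under 0.05. *Stard7*, a carrier of phosphatidylcholine to mitochondria, was at -0.11 (adjusted p = 0.860), with few counts on its 3 transcripts. For the MICOS complex 2 of 8 genes could be tested and 0 passed, with 0 at an unadjusted p under 0.05 and 0 with DESeq2.

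Of the import list 2 of 9 genes passed, both lower in KO, where 11.8% of all transcripts passed and 5.96% were lower. *Chchd4*, the oxidoreductase that folds twin CX9C proteins such as TRIAP1 on import, had 60.8, 67.3 and 71.4 CPM in KO and 85.9, 79.8 and 90.7 in KO-con. Its log2 fold change was -0.35 (SE 0.09, adjusted p = 0.0127 from edgeR), and the libraries did not overlap, as for 30.5% of all transcripts. KO-con was the group that stood apart, since *Chchd4* was also higher in KO-con than in Over-con, by 0.36 on the log2 scale (SE 0.08, adjusted p = 0.00545). *Chchd2*, a twin CX9C protein itself, had 192, 130.2 and 131 CPM in KO against 209, 219 and 204, a log2 fold change of -0.48 (SE 0.12, adjusted p = 0.0129). The call of *Chchd4* was lost without KO replicate 2 or without KO-con replicate 1 or 3, and that of *Chchd2* without replicate 2 of either group. In Over-con the 3 libraries of *Chchd2* were spread from 76.5 to 275 CPM, so its level also varied widely within a group.

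In the apoptosome and p53 list, 3 of 13 transcripts fell in KO, against 5.96% of all transcripts. *Bcl2*, the guardian of the outer membrane against apoptosis, had a KO mean of 645 ± 23.3 CPM against 993 ± 40.9 (SD, n = 3), a log2 fold change of -0.62 (SE 0.07, adjusted p = 2.26e-05 from edgeR). The KO-con libraries, at 1005, 961 and 1047 CPM, stood above the other 9 libraries, which lay between 577 and 670.2. A second *Bcl2* transcript fell by 0.91 on the log2 scale (adjusted p = 0.00889). *Cdkn1a*, a cell cycle inhibitor under p53, fell by 1.26 (adjusted p = 0.0459) at only 1.29 ± 0.955 CPM in KO, and with any single library left out other than KO replicate 2 it no longer passed. The other tested members of the list did not pass.

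In KO-con against Over-con 11 of 48 pathway transcripts passed, 22.9% against 16.3% of all, 9 of them higher and 2 lower in KO-con. This comparison shares the KO-con libraries with that of KO.

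In Over against Over-con 0 of 48 pathway transcripts passed with edgeR, against 1.65% of all transcripts, 3 had an unadjusted p under 0.05, and 1 passed with DESeq2, *Bbc3*, a p53 target that promotes apoptosis. It had 129.8, 128 and 114 CPM in Over and 94.7, 77.4 and 109 in Over-con, with an adjusted p of 0.0715 in edgeR. Over-con was the group that stood apart, since *Bbc3* was also higher in KO-con than in Over-con. That difference was 0.46 on the log2 scale (SE 0.10, adjusted p = 0.00226 from edgeR). Among the genes next to the carriers, *Tamm41* was at 0.25 (adjusted p = 0.511), *Yme1l1* at 0.01 (adjusted p = 0.967), *Stoml2* at 0.11 (adjusted p = 0.531) and *Stard7* at 0.18 (adjusted p = 0.816), all on the log2 scale. The 2 transcripts of *Pisd* were at -0.08 (adjusted p = 0.842) and -0.27 (adjusted p = 0.376). *Chchd2* was at 0.64, and at 1.53 without Over-con replicate 3, where it passed.

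**Figure D5:**
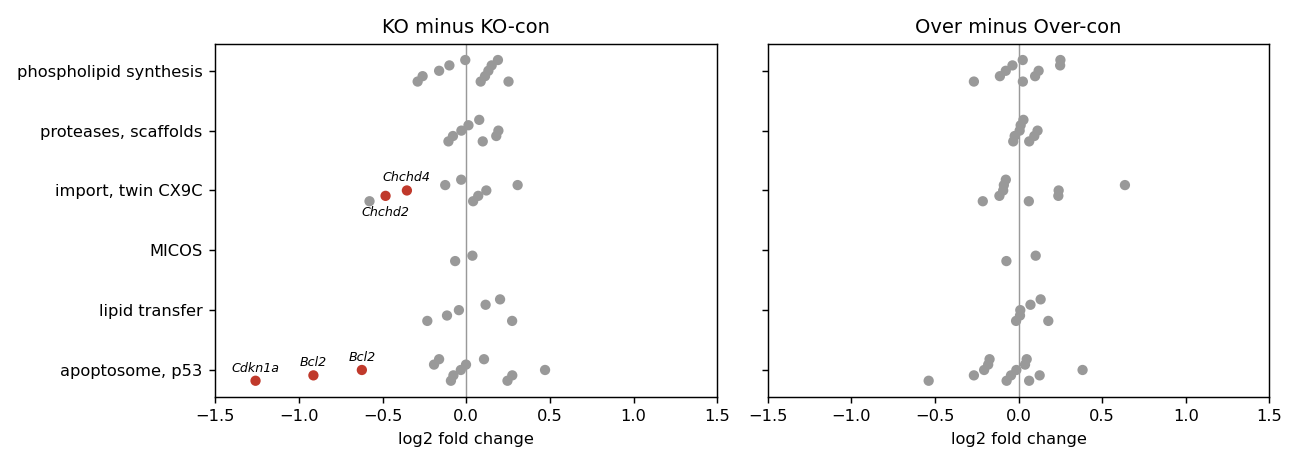
Each point is 1 tested transcript of a pathway list (vertical axis) at its log2 fold change (horizontal axis), with an adjusted p under 0.05 in red and named. In KO minus KO-con the 5 red points, 2 of them *Bcl2*, all lie below 0, and in Over minus Over-con there are 0 red points.

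Transcripts whose pattern was most like that of *Prelid3a* were sought over the 12 libraries among 9902 others, by Pearson's r of log2 CPM with a prior count of 2. The libraries form 4 groups and share their group differences, so r is a description. The highest were *Ppt1*, a lysosomal thioesterase (r = 0.974, Spearman's rho = 0.755), *Rgs12*, a regulator of G protein signaling (0.967, rho = 0.916), *Neu1*, a lysosomal sialidase (0.957, rho = 0.818), *Dusp4*, a MAP kinase phosphatase (0.951, rho = 0.846), and *Glmp*, a lysosomal membrane protein (0.948, rho = 0.902). Their spans differed from that of *Prelid3a*: *Rgs12* went from 66.9 CPM in Over-con to 835 in KO, and *Ppt1* from 141 to 177. The lowest were *Pde3b*, a phosphodiesterase (r = -0.992), *Tmem273* (r = -0.992) and *Gzmb*, granzyme B (r = -0.985). *Pde3b* stood at 279 CPM in Over-con, 212 in Over, 109 in KO-con and 46.2 in KO, the reverse order of the groups.

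The other members were most like other genes. *Prelid2* was most like *Egln3*, an oxygen-dependent prolyl hydroxylase (r = 0.962), *Bnip3l*, a mitophagy receptor (r = 0.939), and *Gbe1*, the glycogen branching enzyme (r = 0.931). *Egln3* stood at 58.9 CPM in Over, 43.9 in Over-con, 37.2 in KO and 30.0 in KO-con, the same order of groups as *Prelid2*. *Prelid1* was nearest to *Gmpr*, *Tradd* and *Pgam1* (r between 0.893 and 0.918), *Prelid3b* to *Nelfa*, *Eif4b* and *Wbp11* (0.856 to 0.890), and *Triap1* to *Pi16*, *Hoxa6* and *Tmem59* (0.858 to 0.871). Between members, r over the 12 libraries ran from -0.57 for *Prelid2* and *Prelid3a* to 0.62 for *Prelid1* and *Prelid2*, and it was -0.21 for *Prelid3a* and *Prelid3b*.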

How the data were processed

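RNA-seq of 12 libraries was analysed. Per the labels and the paper, libraries were made with a stranded mRNA kit and reads were aligned to mm9 with HISAT2 at default parameters. The authors deposited raw counts per RefSeq transcript, 41388 in all, without normalization. The strand setting and the treatment of reads shared between transcripts are not given in the sources used here. DESeq2 is named by the submitters for their own tests. Symbols (41186 transcripts) were taken from RefSeq for GRCm38.p6, and mm9 positions and exonic lengths from GENCODE M1.

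Groups came from the sample titles. KO was compared with KO-con, Over with Over-con and KO-con with Over-con, using edgeR 4.0.16 (TMM, filterByExpr, glmQLFit, glmQLFTest, Benjamini-Hochberg over 9457, 9401 and 9321 transcripts) in R 4.3.3, each fit with its 2 groups only. A call was an adjusted p under 0.05. All 5 members passed the low-count filter in each comparison. Standard errors were derived from the F statistic. Levels used TMM over all 12 libraries, fits their own normalization. Within groups, pairs of libraries differed by more than sampling noise (chi-square per degree of freedom 1.93 to 12.3).

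The members and lists were chosen with earlier results of these data known. Named were all members, up to 3 called genes per pathway list and comparison, 7 pathway genes close to the carriers, the genes next to *Prelid3a*, and the transcripts with the highest or lowest r. Alternatives were DESeq2 1.42.0, other scaling factors and filters, 1 fit of all libraries, the replicate number as a block, counts summed per gene, the other control and each library left out. The fits were tested on simulated data. Copies were sought with blastn 2.17.0.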

Additional observations from a re-analysis of the deposited data

How the results depend on the processing

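Outside the exchange of control groups, 224 of 225 member log2 fold changes held, and 0 called values reversed. To hold was to move by less than the main fit's standard error times the square root of 3. In Over against Over-con it was to stay on the same side of the threshold. The exception was *Prelid3a* in KO-con against Over-con without Over-con replicate 3, at 3.09. *Prelid3a* in KO against KO-con ran from 2.99 to 3.07 with each library left out, and against Over-con it was 5.77. In Over it was 0.06 to 0.58 with each library left out, and against KO-con it reversed to -2.51 (adjusted p = 3.15e-13), with 2 members then called.

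In KO, pathway calls numbered 3 with counts summed per gene, 1 against Over-con and 3 to 6 with a library left out, neighboring calls 3 against Over-con and 3 to 11, and calls over all transcripts 737 against Over-con and 613 to 1271. The 1 pathway call against Over-con was *Chchd10*, higher in KO by 0.77 on the log2 scale (adjusted p = 0.00455 from edgeR). The pathway calls made against KO-con, those of *Bcl2* among them, were all lost there. *Cdkn1a* passed without KO replicate 2 and lost its call without any other library, with library totals, with counts summed per gene and with at least 10 counts required in every library. *Chchd4* lost its call without KO replicate 2 or KO-con replicate 1 or 3, and *Chchd2* without KO replicate 2 or KO-con replicate 2 and with all 12 libraries in 1 fit. In Over, pathway calls numbered 1 with DESeq2, 1 with library totals, 2 without a filter, 16 against KO-con and 0 to 3 with a library left out. Neighboring calls were 0 with all 12 libraries in 1 fit, 15 against KO-con and 0 to 5, and calls over all transcripts 302 without a filter, 2026 against KO-con and 48 to 719, the highest without Over-con replicate 3. In KO-con against Over-con 1 member passed with DESeq2 and 1 to 2 with a library left out; 1 passed in KO under each alternative, and in Over 0 under each but the exchange of controls, which gave 2. The causes were not tested.

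Same-numbered libraries did not deviate together (correlations -0.15 to 0.06), so these values gave no sign of a pairing. They cannot show whether same-numbered libraries shared a culture or a day. With the replicate number as a block, the log2 fold change of *Prelid3a* was 3.03 in KO and 0.26 in Over, neighboring calls in Over were 0 and all calls in Over 67. *Prelid3a* had 18 to 66 counts per library in Over and Over-con, and an effect of depth was not tested.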
